A study of Homo sapiens with 5 samples.

Results

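The genes described here are 122 protein-coding RefSeq entries that were already detected in untreated HEK 293T cells and stood at least 3 times higher both after exposure to 5-aza-2'-deoxycytidine and after a month without it. They are 122 of 16862 entries with an NM_ identifier and 122 of 10433 such entries with at least 1 FPKM in control, or 1.17% of the latter. FPKM counts the sequenced fragments of a gene relative to the length of its transcript and to the size of the library. An entry was taken when it had 1 FPKM or more in control, and 5 FPKM or more and at least 3 times the control value in both treated and recovery cells. Members were thus chosen by all 3 of their FPKM values. The same control value stands under both ratios, so the shared control favours this pattern: a control value that is low for any reason raises both ratios at once. No test of treated or recovery against control is therefore drawn from the members, and their ratios are descriptions.

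HEK 293T is a human embryonic kidney line transformed with adenovirus DNA that also expresses the large T antigen of SV40, and every group here is this 1 line. The control group (2 libraries) had no drug, the treated group (2 libraries) had 3 days of 1 µM 5-aza-CdR, and the recovery group (1 library) had the same treatment followed by 30 days of culture without drug. Libraries came from RNA depleted of ribosomal RNA. The labels speak of triplicate cultures and do not say which culture a library came from. They do not state whether control cells were collected with the treated or with the recovery cells. The authors deposited 1 value per gene and group, so no SD or n stands beside any value below, and a gene's spread between replicates is unknown.

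5-aza-CdR is a cytidine analogue that is built into replicating DNA, where it traps DNA methyltransferases. Methylation of CpG dinucleotides is then lost over cell divisions, and genes whose promoters were silenced by methylation can be transcribed. Germline genes, several of them on the X chromosome, are a well-known class of such genes, and some loci regain methylation after withdrawal while others stay open.

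The promoters of 5 members are shown because methyltransferases act on CpG sites and these genes span the range from few to many of them. H2AC1 stands for the histone members, TKTL1 and ZCCHC12 and ZNF711 are 3 of the members called by the authors, and CCL20, a chemokine gene, had among the fewest CpG. Each line gives the 250 bases before the annotated gene's start, 5′ to 3′, from RefSeq on GRCh38.p14, with every CpG in capitals. For these 5 the entry in the authors' table spans within 5% of the annotated gene.
H2AC1, chr6:25726563-25726812, minus strand: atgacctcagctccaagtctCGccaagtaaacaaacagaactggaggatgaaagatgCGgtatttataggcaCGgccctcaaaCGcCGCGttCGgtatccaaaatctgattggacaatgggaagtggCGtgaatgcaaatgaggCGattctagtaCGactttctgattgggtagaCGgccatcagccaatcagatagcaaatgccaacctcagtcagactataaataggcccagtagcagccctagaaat
TKTL1, chrX:154295545-154295794, plus strand: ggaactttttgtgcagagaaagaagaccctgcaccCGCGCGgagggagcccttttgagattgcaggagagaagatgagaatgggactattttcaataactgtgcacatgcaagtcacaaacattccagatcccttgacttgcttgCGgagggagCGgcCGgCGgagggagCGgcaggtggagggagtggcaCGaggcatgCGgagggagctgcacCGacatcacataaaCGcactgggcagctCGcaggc
CCL20, chr2:227813592-227813841, plus strand: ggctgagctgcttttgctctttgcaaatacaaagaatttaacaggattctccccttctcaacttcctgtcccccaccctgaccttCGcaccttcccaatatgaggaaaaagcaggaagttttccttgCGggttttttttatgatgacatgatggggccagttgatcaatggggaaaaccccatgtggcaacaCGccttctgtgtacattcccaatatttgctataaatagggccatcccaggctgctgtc
ZCCHC12, chrX:118823574-118823823, plus strand: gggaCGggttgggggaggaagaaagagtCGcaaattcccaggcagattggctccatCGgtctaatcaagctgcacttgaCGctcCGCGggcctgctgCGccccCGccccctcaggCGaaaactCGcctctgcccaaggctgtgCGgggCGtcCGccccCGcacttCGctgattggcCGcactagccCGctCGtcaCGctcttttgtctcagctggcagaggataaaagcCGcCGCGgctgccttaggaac
ZNF711, chrX:85243741-85243990, plus strand: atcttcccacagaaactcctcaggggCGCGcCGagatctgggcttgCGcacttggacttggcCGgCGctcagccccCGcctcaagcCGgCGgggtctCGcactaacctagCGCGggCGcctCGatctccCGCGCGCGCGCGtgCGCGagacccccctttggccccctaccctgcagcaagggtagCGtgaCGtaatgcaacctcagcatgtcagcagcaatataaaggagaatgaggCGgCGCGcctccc
The stretch before CCL20 holds 3 CpG and that before H2AC1 11, against 13 for TKTL1, 22 for ZCCHC12 and 27 for ZNF711. H2AC1 and H2BC1 are neighbours read in opposite directions, and their 300-base promoter windows share 286 bases, so the H2AC1 line shows most of the window of H2BC1 on the other strand.

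Member values covered a wide range. In control they ran from 1.01 to 97.9 FPKM with a median of 2.40, in treated cells from 5.09 to 621 with a median of 13.8, and in recovery from 5.13 to 898 with a median of 13. The median ratio to control was 5.03 in treated and 4.55 in recovery cells. As a difference of log2(FPKM + 1), on which low genes move less than their ratios do, the medians were 1.90 and 1.83, beside -0.06 and -0.07 over all 10433 expressed entries. Only 15 members were 10 times or more above control in both groups, 51 had a smaller ratio of 4 to 10, and 56 lay under 4. Low control values were common: 50 members (41.0%) had under 2 FPKM in control, against 7.16% of the expressed entries, and 11 had 10 FPKM or more.

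**Figure D1:**
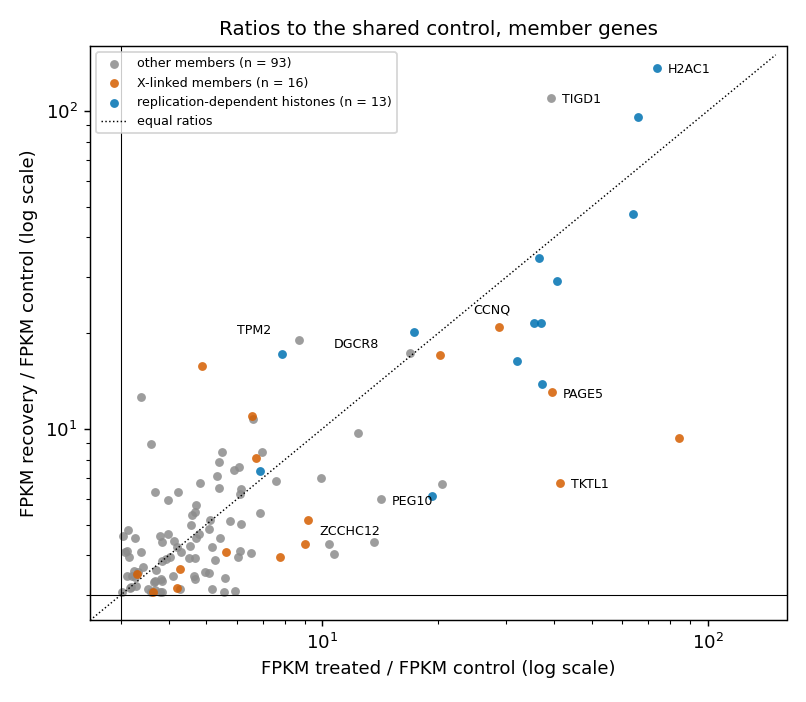
FPKM in treated over control (x axis) and in recovery over control (y axis) for the 122 members, both on log scales, with histones in blue, X-linked members in orange and solid lines at 3. Points sit on both sides of the dotted line of equal ratios, and the histones occupy most of the upper right.

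At the edge of the rule, the members with the smallest ratio were CCS (a copper chaperone, 6.01, 18.2 and 18.4 FPKM in control, treated and recovery), EFNA1 (a membrane-bound ephrin ligand, 1.85, 5.64 and 8.54 FPKM) and CSTF2 (an mRNA 3′ end factor, 11.3, 41.3 and 34.7 FPKM). Just outside lay TMEM160 (smaller ratio 2.998), POLRMT (2.99) and MAOA (2.99). Values of low genes fall on steps. By the commonest ratio of group values, 1 fragment is worth 0.757 times as much FPKM in treated and 1.53 times as much in recovery as in control. A recovery value of 2 fragments for each control fragment therefore gives a ratio of 3.07. CCS, CSTF2, CPNE2, METRNL, SLC35E4 and TMEM37, 6 members, sat at this ratio, just inside the rule. CSTF2 (11.3 FPKM in control), METRNL and SLC35E4 had no match in whole fragments with at most 5 in control. For these the ratio alone does not show few fragments. For 17 members (13.9%) the 3 values were in ratios of whole fragments with at most 5 in control, against 0.915% of the 7654 entries with 1 FPKM in control and 5 in both other groups. These are the smallest numbers that give the ratios, and a multiple would give the same values. Members more often have low control values, and the entries compared were not matched for control level or length. The difference in share is therefore partly set by how members were chosen. H4C13 came out at 1, 49 and 9 fragments and H2AC1 at 2, 195 and 178. CCS (1, 4 and 2), LZIC and CPNE2 also matched at 1 control fragment. Their control values (6.01, 5.37 and 3.18 FPKM) were above the 1.13 FPKM of H4C13, whose entry spans only 364 bases. For CCS, LZIC and CPNE2, which span far more, the true numbers are more likely multiples. Transcript lengths are not given.

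The rule was also applied with the groups exchanged. With control as the low group it found the 122 members, with treated as the low group 41 entries and with recovery as the low group 9. An entry high in 1 group by 3 times over both others was found 32 times for control, 32 for treated and 18 for recovery. Taken singly, 257 expressed entries (2.46%) reached 3 times control in treated and 230 (2.2%) in recovery. The members are 47.5% of the first list and 53% of the second, and both lists rest on the same control values.

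**Figure D2:**
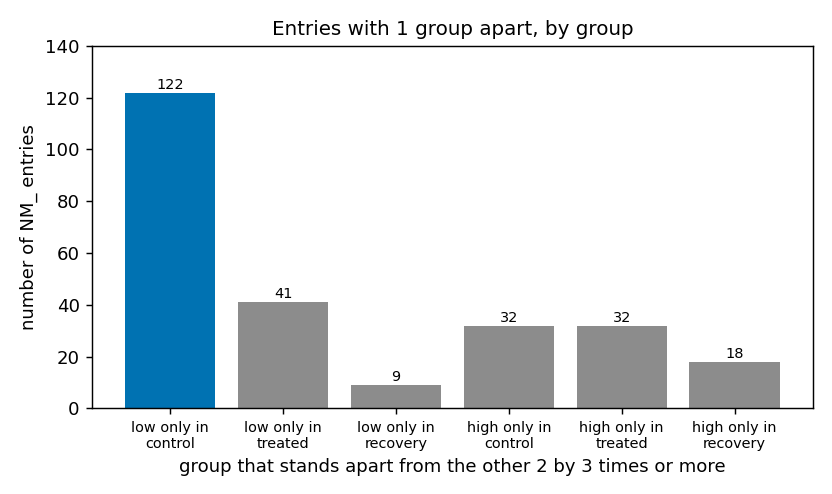
Number of NM_ entries in which 1 group lay at least 3 times below, or at least 3 times above, both other groups, with the same minimum values throughout. The bar for control as the low group, in blue, is the 122 members, and the next is 41 for treated as the low group.

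The authors' deposited table called 5 of the 122 members at q under 0.05 in at least 1 comparison. It called 4 members (3.28%) higher in treated cells, where 0.149% of the tested entries with at least 1 FPKM in control were called higher. In recovery it called 2 members (1.64%) higher, against 0.0398% of such entries, and the rule itself favours such calls. The other 117 were called in neither comparison, and in the authors' deposited table the median q of the members was 0.826 for treated and 0.824 for recovery. A ratio of 3 or more in these values is therefore mostly without a call.

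ZNF711, an X-linked zinc finger gene, was the 1 member called in both. It was at 30.3 FPKM in control, 129 in treated and 110 in recovery cells, and so rose 4.26-fold and 3.62-fold (q = 0.0147 for each in the authors' deposited table). PRAME, an antigen of testis and melanoma on chromosome 22, was at 19.2, 59.3 and 78.8 FPKM and rose 4.09-fold in recovery (q = 0.0147), with q = 0.0586 for treated in the authors' deposited table. It was higher after the month of recovery than under the drug.

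TKTL1, a transketolase-like gene expressed in testis, was at 2.42, 100 and 16.3 FPKM. It rose 41.4-fold in treated cells (q = 0.0329 in the authors' deposited table) and was 6.75 times control in recovery (q = 0.451 there). PEG10, which descends from a retrotransposon and is imprinted, was at 1.97, 28.0 and 11.9 FPKM, a 14.2-fold rise in treated cells (q = 0.0147 in the authors' deposited table) and 6.01 times control in recovery (q = 0.0814). ZCCHC12, an X-linked gene of the retrotransposon-derived PNMA family, was at 6.58, 60.6 and 34 FPKM, a 9.21-fold rise in treated cells (q = 0.0147 in the authors' deposited table) and 5.16 times control in recovery (q = 0.13). All 3 were lower in recovery than in treated cells and still several times above control.

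Replication-dependent histone genes were the largest family among the members. These intronless genes encode the histones made in S phase, and their short mRNAs end in a stem-loop instead of a poly(A) tail. Of 60 measured histone genes of the list, 57 had at least 1 FPKM in control and 13 of these were members (22.8%, against 1.17% of expressed entries). In the member histones control values ran from 1.13 to 15.9 FPKM, treated values from 27.0 to 621 and recovery values from 8.56 to 898. The median ratio was 36.6 in treated and 21.5 in recovery. None of the 13 was called, with q of 0.231 or more for treated and 0.222 or more for recovery in the authors' deposited table.

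Of the member histones, 3 encode variants known from spermatogenesis. H2BC1 (testis-specific H2B, chromosome 6, 25727137 to 25727573 on hg19) had the highest recovery level of all members, at 9.41, 621 and 898 FPKM. H2AC1 (testis-specific H2A, 25726291 to 25726790), its neighbour, was at 3.71, 274 and 507 FPKM. This is 73.8 times control in treated and 136 times in recovery, the largest recovery ratio in the set. H1-6 (the testis linker histone H1t, 26107640 to 26108364) was at 15.9, 110 and 117 FPKM. All 3 were higher in recovery than in treated cells.

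The others encode somatic core or linker histones. H4C6 was at 2.21, 141 and 105 FPKM, H3C12 at 10.0, 367 and 346, H3C3 at 8.61, 276 and 141, and H1-5 at 3.77, 139 and 80.9. H2BC6 was at 11.1, 192 and 223 FPKM, H2AC14 at 3.11, 110 and 66.8, and H3C8 at 2.09, 84.8 and 60.8. The lowest were H4C13 (1.13, 42.0 and 15.6 FPKM) and H3C7 (1.4, 27.0 and 8.56 FPKM). H4C9 (8.74, 68.6 and 151 FPKM) has an entry 21.6 times as long as the gene, so its values may belong to other genes under the same entry. In 5 of the 13 recovery exceeded treated, and in the other 8 it was lower.

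The members come from the low end of the histone genes. All 38 histone genes with 20 FPKM or more in control lay outside the set, with medians of 1085, 760 and 1703 FPKM in control, treated and recovery. Of these 38, 5 were higher in treated than in control and 33 were higher in recovery than in control. Their median ratios to control were 0.616 and 1.30. Of the histones of the list, 0 were called higher and 2 lower in treated cells in the authors' deposited table, which called 0.216% of all tested NM_ entries lower. In recovery 0 histones were called either way there, and 0.389% of tested NM_ entries were called lower. Among the 19 with 1 to 20 FPKM in control, 14 were at least 3 times higher in treated and 13 in recovery. Over the 57 expressed genes the median log2 difference was -0.41 in treated and 0.47 in recovery. The summed histone level was 55452 FPKM in control, 34845 in treated and 70969 in recovery, so the members, though far above their own control, were a small part of it. Another 2 histone genes had the same shape with a control under 1 FPKM, H1-1 (0.957, 119 and 87.1 FPKM) and H2BC3 (0.805, 136 and 45.6 FPKM), and were left out by the minimum. Histone genes of a class are near copies, and how fragments were shared among them is not given, so single values are uncertain. Their entries are short as well: all 12 members under 1000 bases are histones, a length that 0.709% of expressed entries have.

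**Figure D3:**
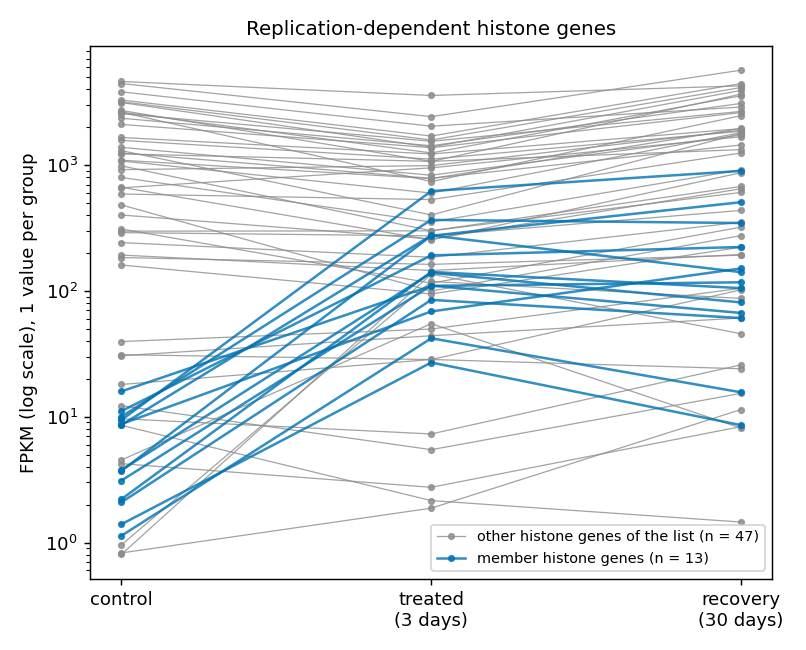
FPKM on a log scale in control, treated and recovery for the 60 measured histone genes of the list, 1 line per gene, with the 13 members in blue. The members start between 1.13 and 15.9 FPKM and end in the range of the other genes, most of which are lower in treated than in control.

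X-linked genes made up 16 of the 122 members (13.1%), against 3.56% of expressed entries, 4.19% of all NM_ entries and 4.05% of those expressed with 1 to 5 FPKM in control. Without the histones they were 14.7% of 109 members. Of the 41 entries at 3 times control in treated but under 1.5 times control in recovery, 2 were X-linked (4.88%), and of the 20 raised in recovery alone 0 were. The share was also above that of expressed entries in the wider lists: X-linked were 27 of the 257 at 3 times control in treated (10.5%) and 24 of the 230 in recovery (10.4%), and, with the members taken out, 11 of 135 (8.15%) and 8 of 108 (7.41%). No test of these shares was made. The X-linked members had median values of 2.25, 42.2 and 20.1 FPKM, and in 12 of 16 the treated value was the higher of the 2 raised ones.

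Among the X-linked members, PAGE5, a cancer-testis antigen, was at 1.09, 43.1 and 14.2 FPKM. NM_145665, an identifier without a symbol in the name table, was at 1.01, 85.2 and 9.46 FPKM, the largest treated ratio of all members (84.4) and the lowest recovery over treated (0.111). PLAC1, a placental gene, was at 1.2, 7.88 and 13.2 FPKM. Unlike TKTL1 and PAGE5 it was higher in recovery than in treated cells. DUSP9, a phosphatase that acts on MAP kinases, was at 2.21, 44.6 and 37.8 FPKM, and CCNQ, a cyclin that partners CDK10, at 1.36, 39.1 and 28.6. Both kept most of the treated level. CITED1, a transcriptional co-regulator of kidney development, was at 8.19, 63.6 and 32.4 FPKM, and C1GALT1C1, the chaperone of an O-glycosylation enzyme, at 2.30, 20.8 and 10.0.

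FLNA, the actin crosslinker filamin A, had the highest control level of the members, at 97.9, 412 and 309 FPKM (q = 0.269 and 0.371 in the authors' deposited table). PCSK1N, an inhibitor of a prohormone convertase, was at 1.51, 7.36 and 23.9 FPKM, 3.24 times higher in recovery than in treated. ARMCX1 (1.05, 7.11 and 8.52 FPKM), TMEM185A (2.29, 7.58 and 7.98 FPKM) and STS, steroid sulfatase (1.5, 8.42 and 6.16 FPKM), were low members with near values in both raised groups. CSTF2 at the edge of the rule, ZNF711, ZCCHC12 and TKTL1 complete the X-linked set.

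**Figure D4:**
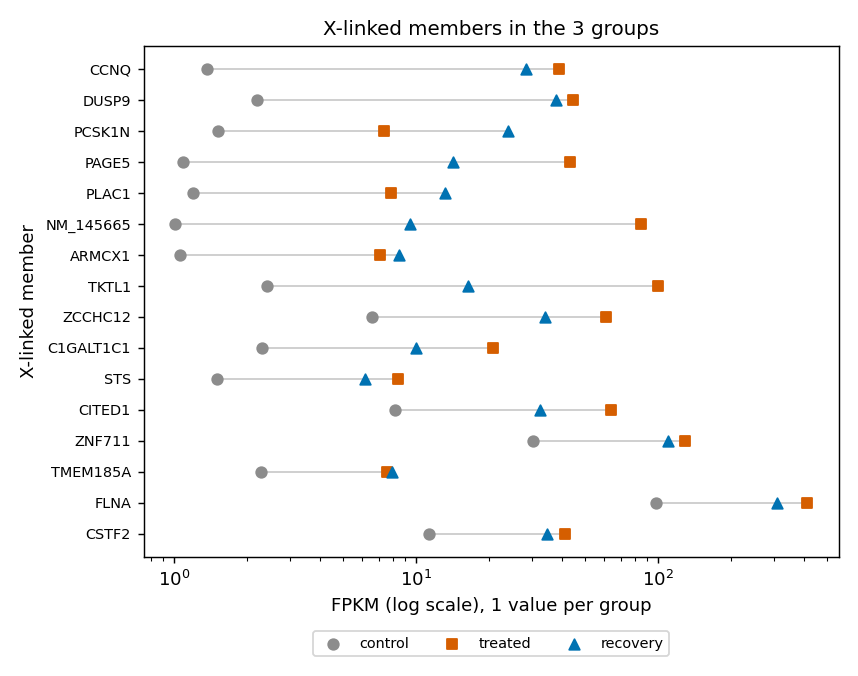
FPKM on a log scale in control (circles), treated (squares) and recovery (triangles) for the 16 X-linked members, ordered by recovery over control. The treated value lies to the right of the recovery value in 12 genes, and NM_145665 and TKTL1 show the widest gaps between them.

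Few germline and placental genes had the 1 FPKM in control that the rule asks for. Of 75 measured genes of the cancer-testis and germline list 43 were listed at 0 in control and 11 had 1 FPKM or more. Of these 11, 3 were members (PAGE5, PRAME and TKTL1). Lists were matched by symbol, so the 4 members without a symbol could not be counted in any list. Of the 75, 17 were called higher and 0 lower in treated cells, and 5 higher and 0 lower in recovery, in the authors' deposited table, which called 1.03% and 0.806% of all tested NM_ entries higher. ALPG, a germ cell alkaline phosphatase on chromosome 2, is outside the list and was at 1.53, 31.3 and 10.3 FPKM. Together with PLAC1 these 5 had median ratios of 20.4 in treated and 6.75 in recovery.

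Transcription factors of development formed another group of 9, put together after the values were seen. BARX1, a homeobox gene of stomach and face, was at 12.6, 66.4 and 48.7 FPKM, with q = 0.052 for treated in the authors' deposited table. HAND1, a heart and trophoblast factor, was at 2.65, 28.3 and 10.7 FPKM, and TBX1, a pharyngeal arch factor, at 1.18, 12.3 and 5.13. TFAP2C, a trophoblast and germ cell factor, was at 3.89, 19.8 and 13.7 FPKM. The other homeobox genes were MNX1 of motor neurons (1.57, 9.23 and 11.6 FPKM), VAX2 of the eye (1.37, 7.41 and 10.8 FPKM), TLX1 of the spleen (2.53, 10.6 and 10.7 FPKM) and HOXC10 (1.68, 8.37 and 5.97 FPKM). With CITED1, the group had median ratios of 5.41 in treated and 4.04 in recovery, and 3 of 9 were higher in recovery than in treated. HOXC10 was the 1 member among 20 expressed genes of the HOX list, whose median log2 differences were 0.38 and 0.03.

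Secreted proteins and receptors were the largest of the groups put together after the values were seen, with 16 members. CCN2, a matricellular growth factor, was at 5.36, 30.9 and 27.4 FPKM, the highest of them in both raised groups. THBS1, the matrix protein thrombospondin 1, was at 1.52, 8.52 and 5.18 FPKM. Ligands included HBEGF of the EGF receptor (1.54, 6.36 and 6.84 FPKM), WNT5B (1.77, 7.06 and 10.6 FPKM), the chemokine CCL20 (3.75, 22.3 and 11.6 FPKM) and EFNA1. FSTL3, which binds activin, was at 1.28, 17.5 and 5.65 FPKM. Receptors included FZD7 for WNT ligands (3.14, 9.94 and 12.4 FPKM) and the cytokine receptor chains IL17RB (1.91, 11.7 and 14.5 FPKM) and IL10RB (4.21, 13.7 and 15 FPKM). The group's median ratios were 4.71 and 4.18, near the 3-fold limit of the rule. In the signalling list CCN2 was the 1 member of 50 expressed genes, and in the list of tumour suppressors silenced by methylation THBS1 was 1 of 23.

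Cytoskeletal members besides FLNA included TPM2, a tropomyosin of muscle and stress fibres, at 4.90, 42.5 and 93.5 FPKM, which was 2.20 times higher in recovery than in treated. HCLS1, an actin regulator of blood cells, was at 1.01, 7.04 and 8.52 FPKM, and TWF2, the actin-binding twinfilin 2, at 4.68, 14.6 and 19.3. FLNA and TPM2 were the 2 members among 50 expressed genes of the actin list, whose median log2 differences were 0.21 and -0.06. OAS3, an interferon-induced antiviral enzyme, was at 2.62, 9 and 9.63 FPKM and was the 1 member among 30 expressed interferon genes. ATF5, a stress-response transcription factor, was at 5.05, 18.7 and 16.8 FPKM in an entry 8.80 times as long as the gene, and was the 1 member among 25 expressed genes of the amino acid and unfolded protein stress list. That list had median log2 differences of -0.91 in treated and -0.07 in recovery, and 4 of its genes were called lower and 0 higher in treated cells in the authors' deposited table.

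Several of the highest members were not of these groups. TIGD1, derived from a DNA transposon, was at 6.10, 239 and 671 FPKM, 39.1 and 110 times control. Its entry was only 0.375 times as long as the annotated gene. DGCR8, the partner of DROSHA in microRNA processing, was at 16, 270 and 277 FPKM, in an entry 1.49 times as long as the gene. USP15, a deubiquitinase, was at 18.4, 140 and 126 FPKM, and ATP6V0E1, a subunit of the vacuolar proton pump, at 19.8, 89.5 and 77.9. In the authors' deposited table these 4 had q of 0.225 or more in both comparisons. An entry over 1.2 times the annotated gene length, which may hold more than 1 gene, was found for 10 of the 118 members with a symbol (8.47%), against 7.35% of expressed entries.

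The 12 genes of the secretory pathway and lysosome, such as the glycoprotein degradation factor EDEM2 (1.63, 10.7 and 17.5 FPKM) and acid sphingomyelinase SMPD1 (1.63, 7.65 and 6.38 FPKM), had median ratios of 4.60 and 3.92. Among the 8 metabolic and mitochondrial genes, CHCHD5, a small mitochondrial protein, was at 1.18, 14.5 and 11.4 FPKM and MECR, an enzyme of mitochondrial fatty acid synthesis, at 1.5, 9.19 and 9.34. Their median ratios were 4.10 and 5.44. The 4 genes of protein turnover and autophagy, with MAP1LC3B (4.26, 18.2 and 13.3 FPKM), were all higher in treated than in recovery. The lowest of these was HERC3, a ubiquitin ligase (1.68, 7.87 and 5.65 FPKM).

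Nuclear and RNA factors were 15, with median ratios of 4.26 in treated and 3.83 in recovery. Besides CCNQ, DGCR8, ZNF711, ATF5 and CSTF2 they included PHF1, a Polycomb partner (1.51, 8.07 and 10.8 FPKM), the elongation factor ELL (1.02, 5.2 and 5.27 FPKM) and PUS1, a pseudouridine synthase (6.54, 21.5 and 21 FPKM). ACTR5, a subunit of the INO80 chromatin remodeller, was at 2.60, 9.96 and 9.97 FPKM. Most had near values in both raised groups, and 5 were higher in recovery. The 6 phosphatases and other signalling proteins, with DUSP9, GNG11, DUSP23 (1.53, 8.39 and 12.9 FPKM) and the RAS effector RASSF5 (1.73, 5.65 and 7.88 FPKM), had a larger median ratio in recovery (6.70) than in treated (4.10). Of the metabolic genes, HYKK, a hydroxylysine kinase (4.01, 14.8 and 25.4 FPKM), also stood higher in recovery than in treated. So did ANTKMT, a mitochondrial methyltransferase (5.06, 21.4 and 31.9 FPKM), in an entry 3.69 times as long as the gene.

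A further 24 members were put in no group. Their control values ran from 1.01 to 7.72 FPKM, their treated values from 5.25 to 85.2 and their recovery values from 5.84 to 34.1, and 13 were higher in recovery than in treated. TUSC2, a candidate tumour suppressor of chromosome 3, was at 1.12, 11.2 and 7.86 FPKM, and CRIP2, a LIM domain protein, at 6.37, 41.6 and 25.8.

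Recovery over treated does not contain the control value, but the rule used both of its values. Entries whose recovery fell under 3 times control were left out in advance. The entries compared below share only the minimum values, so these shares are descriptions. Across the members, recovery was above treated in 53 (43.4%) and below it in 69, against 50% above among the 7654 entries with the same minimum values. The median of recovery over treated was 0.961 for the members and 1.00 for those entries. Recovery lay within 1.5 times of treated in 87 members (71.3%), against 78.6% of those entries. It was at least 2 times lower in 11 members, among them NM_145665, TKTL1, PAGE5, ALPG, FSTL3, HAND1, TBX1 and PEG10. It was at least 2 times higher in 6, namely NM_001187 (1.55, 5.25 and 19.5 FPKM, without a symbol), PCSK1N, TIGD1, GNG11, TPM2 and H4C9. GNG11, a G protein gamma subunit, was at 2.95, 10.6 and 26.4 FPKM. These differences have no error and no test, since each group has 1 value.

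A column headed for DNA methylation marks some genes in the authors' table, and what earned the mark is not described in the sources used here. The mark was on 13 members (10.7%) and on 9.63% of expressed entries, a share near the background. Among entries with 1 to 5 FPKM in control 13.9% were marked, and without the histones 7.34% of the members were. Of the marked members 5 were histones (H2AC1, H1-5, H2BC6, H3C3 and H1-6), 2 were the X-linked TKTL1 and PLAC1, and 6 were others, among them PEG10, TPM2, HCLS1 and OAS3. ZNF711, ZCCHC12 and PRAME were not marked. A second mark, headed expression, was on 14 members (11.5%) against 22.8% of expressed entries.

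Promoter sequences matched 100 of the 122 members by symbol. The median number of CpG in the 300-base window (250 bases before to 50 after the start) was 23.5, with quartiles of 13 and 32.2, against 27 with quartiles of 19 and 35 for 8544 expressed genes. Under 10 CpG were found in 17 member promoters (17%) and in 9.36% of the expressed. These windows were matched by symbol, and an entry shorter or longer than the annotated gene may start elsewhere. Over the 65 members whose entry spans within 5% of the annotated gene, a comparison chosen after seeing the data, the median was 26 and 5 (7.69%) had under 10 CpG, against 27 and 8.59% for 6006 expressed genes of that kind. The difference from the background thus lay in the other 35 members, with a median of 16 and 12 (34.3%) under 10 CpG. For the 2538 expressed genes with another span these were 26 and 11.2%. Most histone members with a promoter are among those 35, so the split by span is partly a split by histones. The histone members had a median of 10.5 over 12 promoters, near the 11 of 43 other histone promoters, the X-linked members 25 over 14 (23 for 328 expressed X-linked genes) and the other members 25.5 over 74. Among members with a matching span, CCL20 had 3 CpG, ALPG 6 and CCNQ 49.

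Short motifs were searched on both strands of the same windows. The TATA box (TATAAA) was in 12 of 100 member promoters, against 5.35% of the expressed genes. It was in 6 of the 12 member histones and in 32 of the 43 other histones. The CCAAT box (CCAAT) was in 42 of 100 and in 37.5%, including all 12 member histones with a promoter and 35 of the 43 other histones. The GC box (GGGCGG, which contains a CpG) was in 68 of 100 and in 71.9%, the E-box (CACGTG, also with a CpG) in 9 and 10.3%, the AP-1 site (TGACTCA) in 4 and 2.62%, and the cAMP response element (TGACGTC, with a CpG) in 5 and 5.95%. A match describes letters only.

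**Figure D5:**
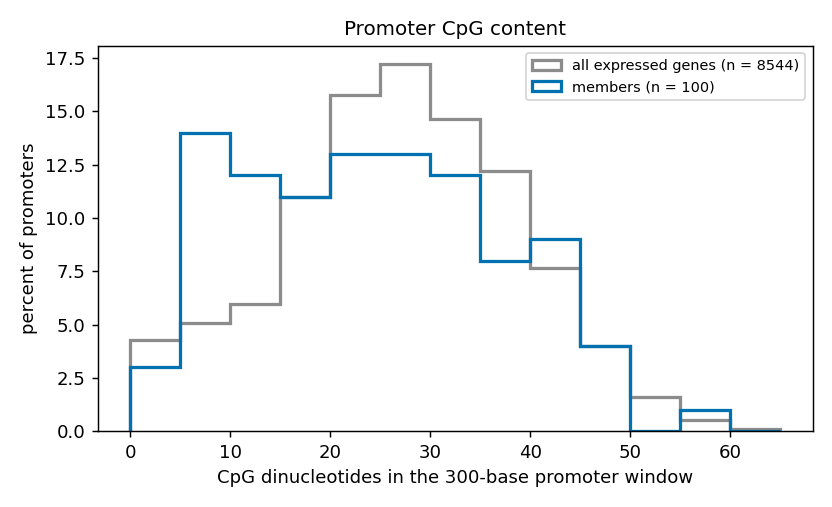
Percent of promoters (y axis) by number of CpG dinucleotides in the 300-base window (x axis, bins of 5) for 100 members and 8544 expressed genes. The members have a larger share under 10 CpG, 17% against 9.36%, which became 7.69% against 8.59% where the entry spans within 5% of the annotated gene.

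Members lay next to each other in 4 places. Among 214 distinct nearest NM_ neighbours within 100 kb that did not overlap a member, 8 were members themselves (3.74%), against 0.876% of the neighbours of expressed entries. On chromosome 6 H2AC1 and H2BC1 lie 347 bases apart and H4C13 and H3C12 16804. On the X chromosome CCNQ and DUSP9 lie 43265 bases apart, and TKTL1 and FLNA 18187. Without the histone members the share was 4 of 191 (2.09%). The 137 other neighbours with at least 1 FPKM in control had median log2 differences of -0.12 in treated and 0.00 in recovery, and 43 (31.4%) were higher than control in both groups, the same share as among expressed entries (31.4%).

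The separate table of long noncoding RNAs held 18 loci within 10 kb of a member and 0 overlapping one. Of the 18, 2 were at least 3 times control in both groups (11.1%), against 10.1% of loci near expressed genes. One, 271 bases from BARX1, was listed at 0 in control and at 164 and 9.75 FPKM, and the other, 191 bases from CCNQ, at 0, 119 and 11.7. Their recovery levels were a small part of their treated levels, unlike those of BARX1 and CCNQ. The locus 805 bases from ZCCHC12 was at 24.7 FPKM in control and listed at 0 in both other groups, and that 253 bases from MNX1 was at 285, 106 and 321.

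Marker lists of other cell types held 0 members. Summed over each list, blood cell markers were at 1.53, 13.6 and 4.76 FPKM (19 of 22 listed at 0 in control), fibroblast markers at 80.8, 113 and 88.7, epithelial markers at 285, 601 and 301 and endothelial markers at 50.8, 75.7 and 49.5. The part of such cells in the members' values was not tested. Genes of the line's own background summed to 600, 669 and 526 FPKM. That list and the epithelial list both hold KRT8 and KRT18, so their sums can overlap. The epithelial sum is thus not a measure of other cells alone. The tables give no library sizes. The fragment steps correspond to a depth of 1.32 times control in treated and 0.652 times in recovery, which is read from the values and not measured. Control and treated have 2 libraries each and recovery 1. How libraries were combined is not given, so these figures are not a depth per library. In bulk RNA fewer expressing cells and less RNA per cell cannot be told apart.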

How the data were processed

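RNA from 5 libraries of HEK 293T cells was sequenced, and groups were taken from the sample titles. Replicates were combined by the authors into 1 FPKM value for each gene in each group, deposited with q-values (adjusted p-values) of treated and of recovery against control, per the file headers. Cufflinks and Cuffdiff and the builds hg19 and mm9 are named in the submitters' processing notes; since the cells are human, positions were read as hg19 and are printed 1-based. The aligner, the gene annotation and the settings were not given in the sources used here. An exponent had lost its minus sign in 1 of 20221 RefSeq and 2 of 21627 lncRNA entries, which were left out.

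The members, lists, groups and named genes were chosen with earlier results of these data known. Named were members called by the authors, the 15 with the largest smaller ratio, the 10 highest in recovery, members of the fixed lists, X-linked members and the 3 nearest each side of the limit; the rest were chosen after their values were seen. Symbols and promoters came from RefSeq (GRCh38.p14) by identifier and symbol, for 118 members and 100. Entries with a q under 1 were counted as tested by the authors. Nothing was tested beyond the authors' q, since only group values exist. Fragment steps used the commonest ratio of group values, up to 5 control fragments and a tolerance of 0.02. Log2 values used a pseudocount of 1. The share of lncRNA loci used 1 FPKM or more in both groups. The rule was tested on simulated data. Python 3.11.15, pandas 2.3.3 and matplotlib 3.10.9 were used. Alternatives changed the rule's limits, the scaling, the q threshold, the pseudocount and the distances.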

Additional observations from a re-analysis of the deposited data

How the results depend on the processing

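No paired analysis was possible because the tables give 1 value per group, and for the same reason leaving out single libraries was not run. The number of members depended on the limits of the rule. It was 338 at 2-fold and 66 at 4-fold, 68 with 10 FPKM or more in both raised groups and 72 with 2 FPKM or more in control. It stayed within 1.5 times of 122 with a control of 0.5 FPKM or more (140), with 3 FPKM in the raised groups (146), after median ratio scaling (133), after quantile scaling (110, of which 96 were among the 122) and with NR_ entries added (131). With a q under 0.01 the share of members called was 0% in treated and 0% in recovery. The lowest q of any member was 0.0147, a value shared by ZNF711, PRAME, PEG10 and ZCCHC12. That alternative could therefore call no member, and nothing is read from it. At 4-fold the share called in recovery was 0%. X-linked members were 12.7% at 2-fold and 16.7% at 4-fold, and the median promoter CpG 27 and 19. With the entry's span within 5% of the annotated gene, an alternative chosen after seeing the data, that median was 26. Of 66 alternative values, 59 lay within 1.5 times of the reported count or median or inside the exact 95% binomial interval of the reported share. Few fragments may stand behind the lowest control values, though fragment counts were not given. In control 50 members had under 2 FPKM.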
